A study of Mus musculus with 12 samples.

Results

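The peaks described here are the sites in protein-coding sequence where Argonaute (Ago) protein was crosslinked to RNA and where no seed match to any of 6 scored microRNAs was recorded. They were taken from the deposited peak table as all peaks of the feature class CDS whose match codes were all 0, for miR-16-5p, miR-21a-5p, miR-122-5p and the microRNAs of the knocked-out locus (miR-144-3p, miR-144-5p and miR-451a). The rule used the peak's place and its codes and no read count. It found 18591 of 106382 peaks, or 17.5% of all peaks and 51.9% of the 35825 coding peaks. For comparison, 14217 coding peaks carried a code for a microRNA of the miR-144/451 locus, 3017 carried a code for miR-16-5p, miR-21a-5p or miR-122-5p alone, and 14999 peaks in 3′UTRs carried no code. A code of 0 also means that no match to miR-144-3p, miR-144-5p or miR-451a with a single mismatch was recorded, since such matches had codes of their own.

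The material was fetal liver of C57BL/6J mouse embryos, with no embryonic age in the labels. The 12 HITS-CLIP libraries formed 4 groups of 3. WT Ago (libraries 1, 9 and 10) and WT IgG (2, 6 and 11) came from wild-type embryos, and KO Ago (3, 12 and 13) and KO IgG (4, 8 and 14) from embryos without the miR-144/451 locus. Ago groups were precipitated with an Ago antibody and IgG groups with control IgG. Fetal liver is a site of blood formation and holds erythroid cells beside hepatocytes and other cells. Of the marker genes looked for, 26 of 26 haem and iron genes and 33 of 38 hepatocyte genes had reads in every Ago library, as had 23 of 26 erythroid regulators, 15 of 25 red cell membrane and globin genes, 13 of 16 granulocyte, 11 of 17 macrophage, 5 of 11 endothelial and 4 of 12 megakaryocyte genes. The alpha and beta globin genes had no peak named for them. No peak lay over Mir144 or Mir451a, so the genotype could not be checked at the locus and is taken from the labels. The Ago libraries held 147969 to 452157 reads in peaks and the IgG libraries 24622 to 42916.

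Ago proteins carry a microRNA and are guided to messenger RNA mainly by pairing of the microRNA's seed, most often in the 3′UTR. In HITS-CLIP the RNA under Ago is fixed by ultraviolet light, trimmed and sequenced, so that a peak marks where Ago sat and not which microRNA brought it there. Coding sequence is also occupied by Ago. Binding there can rest on other microRNAs, on pairing outside the seed, or on contact without a guide match, and a peak of an Ago library can also hold carried-over RNA, for which the IgG libraries are the control.

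The seeds whose matches are missing from these peaks are shown first, because they define the group. The mature sequences are those of RefSeq (GRCm38.p6), 5′ to 3′, with the seed (bases 2 to 8) in capitals. The sequence of miR-122-5p was not used here.
miR-451a: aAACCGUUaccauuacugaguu
miR-144-3p: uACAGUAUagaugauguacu
miR-144-5p: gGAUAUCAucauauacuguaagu
miR-16-5p: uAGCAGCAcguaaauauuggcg
miR-21a-5p: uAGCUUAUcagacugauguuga
These seeds differ from each other, and the first 3 microRNAs are those that the knockout lacks.

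Peak sequences could be read for the 28 members that lie wholly inside a RefSeq promoter window, which runs to the first bases of the transcript. The 6-base match to bases 2 to 7 of any of the 5 seeds, on the strand of the gene, was in 0 of the 28, which the choice of peaks with codes of 0 fixes and which is no result. Among all 289 peaks that lie inside such windows, the letters and the deposited codes went together for miR-451a (9 of 9 coded peaks held the 6-mer), for miR-16-5p (23 of 24) and for miR-21a-5p (1 of 2), and no peak with the 6-mer lacked a code. The best covered members of this kind lie in replication-dependent histone genes, each with an ATG in the peak, and are shown because both tested members with a readable sequence are among them.
Hist1h2af chr13:23533899-23533922 (+): aaggtacctacaatgtctggacgc
Hist1h3c chr13:23745486-23745511 (-): atctcctcccaagaatggctcgtact
Hist1h3e chr13:23562356-23562381 (-): tttctcctcctctgcaatggctcgta
Hist1h2an chr13:21787204-21787227 (-): ttgtttagaatgtctggacgcggc
The coordinates are mm10, and no base is in capitals because no 7-base match was found. Hist1h2af and Hist1h2an encode histone H2A and share the stretch aatgtctggacgc, while Hist1h3c and Hist1h3e encode histone H3 and share aatggctcgta. Histone genes are near-identical copies, so reads of one can map to another and the values of all histone peaks here are uncertain in which copy they belong to. The Hist1h2af peak had a log2 change of -0.15 ± 0.42 in KO against WT Ago libraries (fitted change ± SE, n = 3 each; edgeR adjusted p = 0.86), and the Hist1h3c peak one of 0.37 ± 0.35 (adjusted p = 0.57).

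A lack of these 6 codes does not mean that a peak has no seed match at all. The 28 sequences were also searched for the 7-base match to bases 2 to 8 of 20 other microRNAs with a RefSeq sequence, on the strand of the gene, and 5 of the 28 held one. Of the 261 other peaks inside such windows 23 held one. The corresponding stretches of all 32851 promoter windows, most of them without a peak, held one in 2.46% of cases on average. The match is in capitals in 2 of these members.
Dnm2 chr9:21465582-21465604 (+): aatatgcggaattTTTGCACTGc
Abcd3 chr3:121815090-121815118 (-): atggcggccttcagcaagTACTTGAcggc
The capitals in Dnm2, which encodes a dynamin of endocytosis, cover overlapping matches to miR-130a-3p, miR-19b-3p and miR-148a-3p. Those in Abcd3, a peroxisomal transporter gene, match miR-26a-5p. Both peaks held too few reads to be tested, with 14 and 8 Ago reads.

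The members were short, shallow peaks spread over many genes. Their median width was 29 nt (quartiles 24 and 36), beside 27 nt over all peaks. The median member held 10 reads over the 6 Ago libraries, as did the median of all peaks, and the deepest held 447. Under 20 Ago reads were found in 82.1% of members. No IgG read was found in 58.7% of members, against 50.7% of all peaks. The authors' deposited IgG ratio, the height of a peak in IgG over that in Ago libraries, had a median of 0.0244 in members, 0.0244 in coding peaks with a locus code, 0.0305 in 3′UTR peaks without a code and 0.0438 over all peaks. Their deposited density over the average coverage of the gene had a median of 2.11 in members, below the 2.69 of coding peaks with a locus code and the 2.72 of all peaks.

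The 18591 members fell into 5289 genes, of which 2058 held 1 member and 362 held 10 or more. Most members were found in Apob (94), the apolipoprotein of liver lipoproteins, Mki67 (82), a protein of dividing cells' chromosomes, and Ranbp2 (61), a nuclear pore protein. Other peaks were common in the same genes: 69.2% of their genes also held a coding peak with a miR-144/451 code, and 74.5% a 3′UTR peak. The nearest such coded peak on the same strand lay within 100 nt for 22.1% of members and within 20 nt for 6.33%, with a median gap of 839 nt.

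As a share of each library's reads in peaks, the members took 15.2%, 16.9% and 16.1% of WT Ago libraries 1, 9 and 10. The shares of KO Ago libraries 3, 12 and 13 were 16.9%, 18.4% and 17.3%. The KO share was higher by 1.503 percentage points, at 17.6% ± 0.763 against 16.05% ± 0.837 (SD, n = 3 each). The lowest KO library lay just above the highest WT library. The exact permutation test gave p = 0.10, the smallest that 3 against 3 libraries allow. Without the 10 members with most reads the difference was 1.497 points and the exact permutation p was 0.20. Shares are parts of a fixed total, so a fall in another class can raise them. Coding peaks with a locus code took 17.6%, 16.9% and 15.7% of the WT Ago libraries, in the same order. They took 12.9%, 13.8% and 13.0% of the KO Ago libraries. What part this has in the higher KO share was not tested. Counting only the members that were too shallow for the test per peak, the WT share was 14.0% ± 0.985 and the KO share 15.04% ± 0.919 (SD, n = 3 each), the groups overlapped, and the exact p was 0.30.

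**Figure D1:**
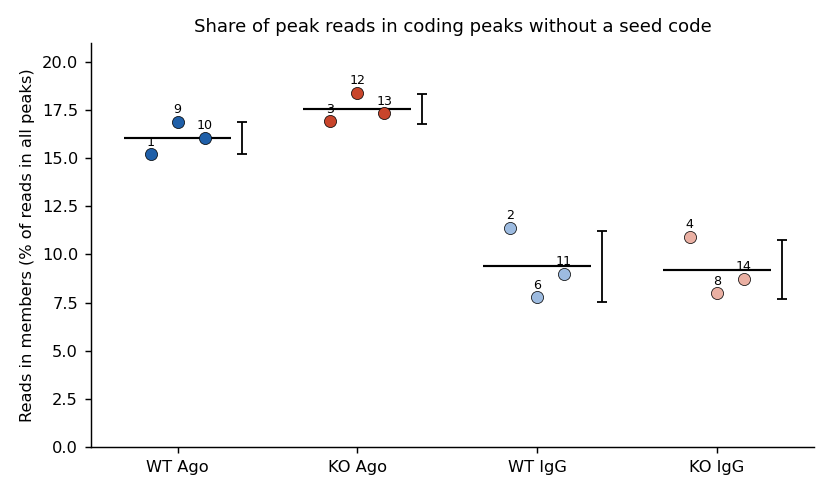
Share of the reads in all peaks that fell in coding peaks without a seed code, in percent, for each of the 12 libraries (points, with library numbers), with the mean (line) and SD (bar) of the 3 libraries of each group. The 6 Ago libraries lie between 15.2% and 18.4%, all above the 6 IgG libraries, which lie between 7.77% and 11.4%.

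In the IgG libraries the WT share of the members was 9.38% ± 1.84 and the KO share 9.22% ± 1.53 (SD, n = 3 each; exact permutation p = 0.80). The Ago share was higher by 6.67 percentage points in WT and by 8.33 in KO, each with exact permutation p = 0.10. With both genotypes together and the antibody labels permuted within each genotype, the difference was 7.501 points and the exact p was 0.0050, the smallest this design allows. Peaks had been called on the pooled Ago libraries. Within coding sequence the order was the reverse. Members took 44.8% ± 2.04 of coding peak reads in WT Ago and 51.1% ± 1.42 in WT IgG (SD, n = 3 each; exact p = 0.10), and 50.8% ± 0.298 in KO Ago and 53.6% ± 2.87 in KO IgG (exact p = 0.40).

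The difference from similar peaks was tested as the log2 ratio of summed reads per library. Set against coding peaks with a miR-144/451 code, the members had a larger part in KO: the mean log2 ratio was 0.41 ± 0.01 there and -0.06 ± 0.13 in WT (SD, n = 3 each). It was -0.21, 0.00 and 0.03 in the WT libraries and 0.40, 0.41 and 0.42 in the KO libraries, which did not overlap (exact permutation p = 0.10). Set against 3′UTR peaks without a code, the ratio was 0.30 ± 0.22 in WT and 0.17 ± 0.17 in KO, and the libraries overlapped (exact p = 0.50). Set against coding peaks with only miR-16-5p, miR-21a-5p or miR-122-5p codes, members took relatively less in KO, at 2.22 ± 0.06 against 2.39 ± 0.10 in WT, without overlap (exact p = 0.10).

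Setting KO beside WT Ago libraries asks which bound sites change when miR-144 and miR-451 are gone, and for these peaks what changes where no seed match to them was recorded. Of 18591 members, 362 in 255 genes had enough reads for the edgeR quasi-likelihood test, run on all 2425 tested peaks with Benjamini-Hochberg adjustment at 0.05. Among the 362, 26 members in 25 genes fell and 6 in 5 genes rose in KO. That is 7.18% lower and 1.66% higher, where 17.6% of all tested peaks were lower and 1.40% higher. The median log2 change was 0.18 in members and 0.09 over all tested peaks. With scaling by library size alone these medians were 0.34 and 0.25, and 21 members were lower and 9 higher, so that all changes here are relative to the scaling. Levels are given as CPM, reads scaled by TMM library size so that libraries of unlike depth compare. In each comparison, library size means the summed reads of the tested peaks, also where it is used alone. CPM values here are therefore higher than they would be over all reads in peaks. The p-values measure the spread between these libraries, which may in part be technical, because the sources used here do not say whether separate livers were used.

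The filter on low counts bears on these numbers. It asks for enough reads in 3 libraries, so a peak could enter through 1 genotype alone. Of the 26 lower members, 23 reached the filter level in all 3 WT libraries and in no KO library, and only 24 of the 362 tested members did so. All 6 higher members reached it in all 3 KO and in no WT library, as did 28 tested members. Members that entered this way had to differ between genotypes, so the counts describe the deep end of the group and not all members. Only 2 lower members, in Hist2h2bb and Car2, reached the level in all 6 libraries.

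In the same fit, among coding peaks with a miR-144/451 code, 148 of 448 were lower (33.0%) and 2 higher, with a median log2 change of -0.36. Coding peaks with only the other codes had 1 lower and 1 higher of 102 and a median of 0.16, and 3′UTR peaks without a code 31 lower and 8 higher of 377 and a median of 0.23. In the last group 8.22% were lower. The difference between these classes was not tested.

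**Figure D2:**
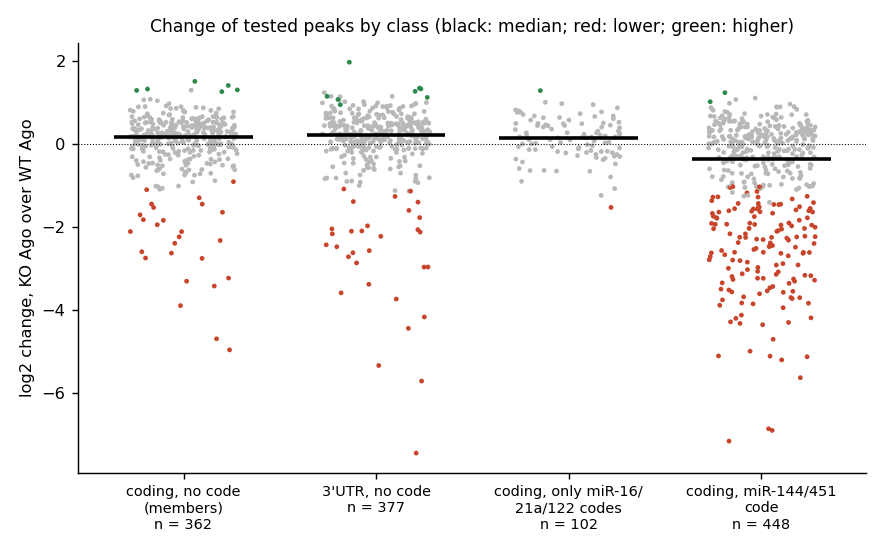
Fitted log2 change of KO over WT Ago libraries for each tested peak (points) in 4 classes, with the median as a black line, peaks lower in KO in red and peaks higher in KO in green. The medians are 0.18 for the 362 members, 0.23 for 3′UTR peaks without a code, 0.16 for coding peaks with only the other codes and -0.36 for coding peaks with a miR-144/451 code.

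The 12 lower members named first have the smallest p-values, leaving out 1 whose gene name is held as a date. The peak of Rrm2 (chr12:24711669-24711690, + strand), the small subunit of ribonucleotide reductase, held 37, 40 and 17 reads in the WT Ago libraries, in the order 1, 9 and 10, and 3, 2 and 0 in KO, in the order 3, 12 and 13. Its level fell from 699 ± 179 to 42.3 ± 44.7 CPM (SD, n = 3 each), a log2 change of -3.90 ± 0.54 (SE; edgeR adjusted p = 1.2e-04). All KO libraries lay below all WT libraries, and the 6 IgG libraries together held 2 reads. Mical3 (chr6:120931860-120931902, - strand), a monooxygenase that acts on actin, held 18, 21 and 10 WT reads and 0, 1 and 0 KO reads. WT reads exceeded KO reads 41.2-fold after scaling (95% exact counting interval 7.05 to 1659), with an edgeR adjusted p of 1.2e-04 and no IgG read. The peak of Sgk3 (chr1:9868383-9868409, + strand), a serine/threonine kinase, held 12, 19 and 10 WT reads and 1, 0 and 0 KO reads, a 34.4-fold ratio (5.85 to 1393; edgeR adjusted p = 2.0e-04). In these 3 genes the KO libraries held 0 to 3 reads each. The 12 counts of each of these 3 peaks differ by at most 10% of their sum from those of a peak elsewhere (in Ubr4 for Rrm2, in Dync1i2 and Zwilch for Mical3, in Cebpg and Prkar2b for Sgk3). Whether such peaks share reads was not tested, and their values are uncertain for that reason. The same holds for 45 of the 362 tested members, Cdc6 and Ankrd9 below among them.

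The next peaks kept a few KO reads. Ggnbp2 (chr11:84837877-84837898), a gene for a gametogenetin-binding protein, had levels of 487, 431 and 493 CPM in WT and 89.1, 37.9 and 0 in KO, a log2 change of -3.31 ± 0.53 (SE, n = 3 each; edgeR adjusted p = 2.7e-04). Top2a (chr11:99004254-99004275), the DNA topoisomerase of dividing cells, had 511, 447 and 329 CPM in WT and 59.4, 56.9 and 76.1 in KO. Its log2 change was -2.75 ± 0.45 (edgeR adjusted p = 3.2e-04). WT and KO libraries did not overlap in either gene, as in all 26 lower members, which were called on this difference. Itsn1 (chr16:91827871-91827923), an endocytic scaffold, went from 389, 303 and 394 CPM to 29.7, 56.9 and 0, and Rad23b (chr4:55389932-55389960), a DNA repair and ubiquitin shuttle protein, from 292, 447 and 362 to 29.7, 75.8 and 38.04. Their log2 changes were -3.23 ± 0.56 and -2.76 ± 0.49 (edgeR adjusted p = 4.9e-04 and 6.0e-04). The KO libraries of these 4 genes held between 0 and 4 reads each.

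The remaining 5 of the 12 were Rnf19a, Serinc3, Rsad2, Hist1h1b and Tspan33. Rnf19a (chr15:36265315-36265359), a ubiquitin ligase, kept the most in KO, with 178, 133 and 190 CPM against 584, 750 and 526 in WT. Serinc3, a membrane protein, fell from 388 ± 59.1 to 55.0 ± 48.1 CPM, and Rsad2, the antiviral protein viperin, from 602 ± 206 to 131 ± 36.3 (SD, n = 3 each). Hist1h1b, a linker histone, fell from 566 ± 223 to 125 ± 19.98 CPM and Tspan33, a tetraspanin, from 338 ± 49.3 to 41.5 ± 48.5. The edgeR adjusted p-values of the 5 lay between 9.8e-04 and 0.0027, and in each gene all KO libraries were below all WT libraries. WT spread was widest in Rsad2 and Hist1h1b, where library 9 lay at 367 and 319 CPM and libraries 1 and 10 at 682 and 756, and at 755 and 625.

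**Figure D3:**
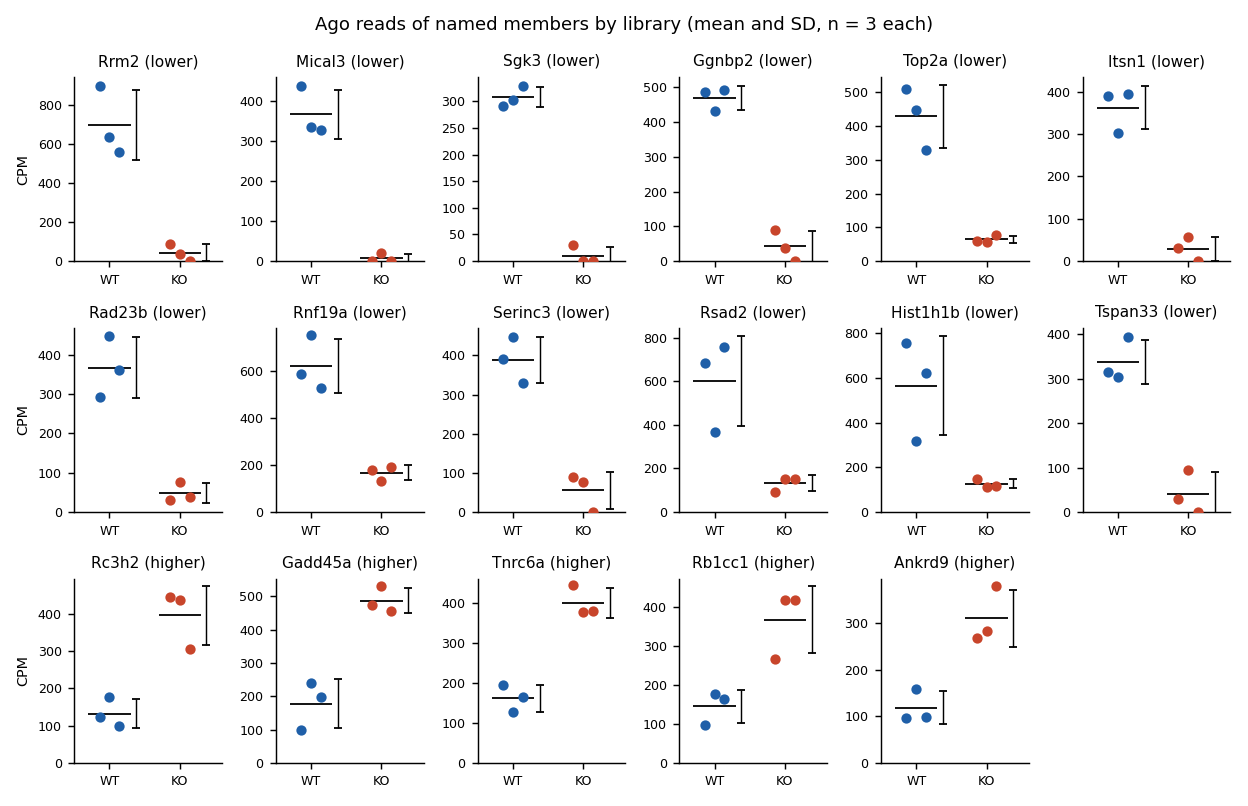
Level in CPM of the named lower (12) and higher (5) members in each WT Ago (blue) and KO Ago (red) library, with the mean as a line and the SD as a bar (n = 3 each). WT and KO libraries do not overlap in any panel, and the KO libraries of Mical3 and Sgk3 each include 2 at 0.

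Further lower members belonged to the gene lists described below. By p they were Cltc, the clathrin heavy chain, Tfrc, the transferrin receptor that brings iron into the cell, Cdc6, a replication licensing factor, and Dhx15, a splicing helicase. Their log2 changes were -2.24 ± 0.48, -1.84 ± 0.40, -2.33 ± 0.51 and -1.71 ± 0.39 (SE, n = 3 each; edgeR adjusted p = 0.0028 to 0.0042). Hist1h4f, a histone H4 gene, Eif5, a translation initiation factor, Slc4a1, the band 3 anion exchanger of red cells, and Rrm1, the large subunit of ribonucleotide reductase, changed by -1.45 ± 0.37, -1.65 ± 0.45, -1.45 ± 0.45 and -1.30 ± 0.41 (edgeR adjusted p = 0.0088 to 0.035). Both subunits of ribonucleotide reductase thus had a lower member, but the Rrm1 call was lost under 8 of 13 alternatives, DESeq2 and scaling by library size alone among them. The lower members not named by the rule were 1 in Rchy1, 2 in Top1 and the 1 with a date for a name.

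The deepest lower member was also the deepest member of all by WT level. Hist2h2bb (chr3:96269723-96269761, + strand), a histone H2B gene, held 106, 119 and 92 WT reads and 52, 55 and 23 KO reads. Its level was 2580, 1899 and 3024 CPM in WT and 1545, 1043 and 875 in KO. The log2 change was -1.10 ± 0.34 (SE, n = 3 each; edgeR adjusted p = 0.030), and WT reads exceeded KO reads 2.05-fold (95% exact counting interval 1.67 to 2.53). Car2 (chr3:14897945-14897981), a carbonic anhydrase abundant in red cells, fell from 1432 ± 276 to 762 ± 109 CPM (SD, n = 3 each), a log2 change of -0.91 ± 0.30 with an edgeR adjusted p of 0.047. Both log2 changes were smaller in size than those of the 12 above, and the calls were lost under 10 of 15 alternatives for Car2 and 5 of 15 for Hist2h2bb.

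Other deep members showed no call. Of the genes with the highest WT level, Alb, Snrpd1, Mt2, Hnrnpa2b1 and Hist1h2ad had edgeR adjusted p-values from 0.10 to 0.99. Snrpd1, a core protein of the splicing machinery, was at 1409 ± 172 CPM in WT and 1285 ± 111 in KO, and Mt2, a metallothionein, at 1225 ± 197 and 1297 ± 237 (SD, n = 3 each). Hnrnpa2b1, an RNA-binding protein, was at 1074 ± 289 and 612 ± 96.0 CPM, a log2 change of -0.81 ± 0.32 that did not pass (edgeR adjusted p = 0.10). Its WT and KO libraries did not overlap. In the authors' deposited table of differential peaks it was lower, with a log2 change of -1.19 and a false discovery rate of 0.0062. Alb, serum albumin, stood at 901, 1213 and 2958 CPM in WT and 1396, 1497 and 2777 in KO, so its WT libraries spanned the whole KO range.

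The 6 higher members changed less than most lower ones, by log2 1.26 to 1.51. The peak of Rc3h2 (chr2:37411196-37411227, - strand), the RNA-binding ubiquitin ligase roquin-2, held 5, 11 and 3 WT reads and 15, 23 and 8 KO reads. It rose from 132 ± 39.5 to 395 ± 78.9 CPM (SD, n = 3 each), a log2 change of 1.51 ± 0.39 (edgeR adjusted p = 0.0093). Gadd45a (chr6:67035694-67035727), a growth arrest and DNA damage protein, stood at 97.4, 239 and 197 CPM in WT and 475, 531 and 457 in KO (edgeR adjusted p = 0.015). KO and WT libraries did not overlap in either gene.

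Tnrc6a, which encodes the GW182 scaffold that Ago recruits for silencing, held 2 of the 6. One of its peaks (chr7:123182384-123182408) had 195, 128 and 164 CPM in WT and 446, 379 and 380 in KO, and the other began at position 123170293 and rose from 153 ± 79.0 to 389 ± 106 CPM (SD, n = 3 each). Their log2 changes were 1.33 ± 0.37 and 1.29 ± 0.41 (edgeR adjusted p = 0.016 and 0.038). Rb1cc1, a scaffold of autophagy initiation, rose from 146 ± 42.3 to 368 ± 86.8 CPM and Ankrd9, an ankyrin repeat protein, from 119 ± 35.6 to 311 ± 61.0 (SD, n = 3 each). With DESeq2 none of the 6 passed, where 8 members had an unadjusted p under 0.05 and a rise.

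The gene around a member gave a measure that its own call had not used. For each tested member, the reads of all other peaks of its gene more than 50 nt away and without a miR-144/451 code were summed. Their CPM is over the reads of tested peaks, although the sums also hold untested peaks. Such a sum can include other members, called or not. A gene with several tested members, such as Top1, enters for each of them. Around the 26 lower members these sums had a median log2 ratio of KO over WT of -0.29, with a range from -0.94 to 0.20, and for 6 of the 26 members all KO libraries lay below all WT libraries in these sums. Around the 323 members that were not called and had at least 20 such reads, the median was 0.07, and 27 sums were lower in all KO libraries. The change of the member was larger than that of the rest in all 26, but the members had been called on their change, so that count is a description only.

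The genes differed in how the rest behaved. In Tfrc the other uncoded peaks went from 8491 ± 1310 to 4765 ± 746 CPM and in Eif5 from 2446 ± 351 to 1273 ± 463 (SD, n = 3 each), and in both the libraries did not overlap. In Rrm2 they went from 2099 ± 564 to 1392 ± 114, also without overlap. In Cdc6 they stood at 1464 ± 328 and 1557 ± 313 CPM, in Car2 at 3456 ± 408 and 3576 ± 422, and in Cltc at 6717 ± 1126 and 6427 ± 1436, where the genotypes overlapped. Around the 6 higher members the median was 0.45. In Tnrc6a, which holds 2 of them, the rest around the more strongly called member went from 2633 ± 366 to 4388 ± 1189 CPM (SD, n = 3 each), all KO libraries above all WT libraries. This sum includes the other called Tnrc6a member, so it is not separate from the calls. The median of 0.45 counts Tnrc6a for both members. In Ankrd9 the rest of the gene went the other way, from 1858 ± 46.2 in WT to 1255 ± 279 in KO, all KO libraries below all WT libraries.

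**Figure D4:**
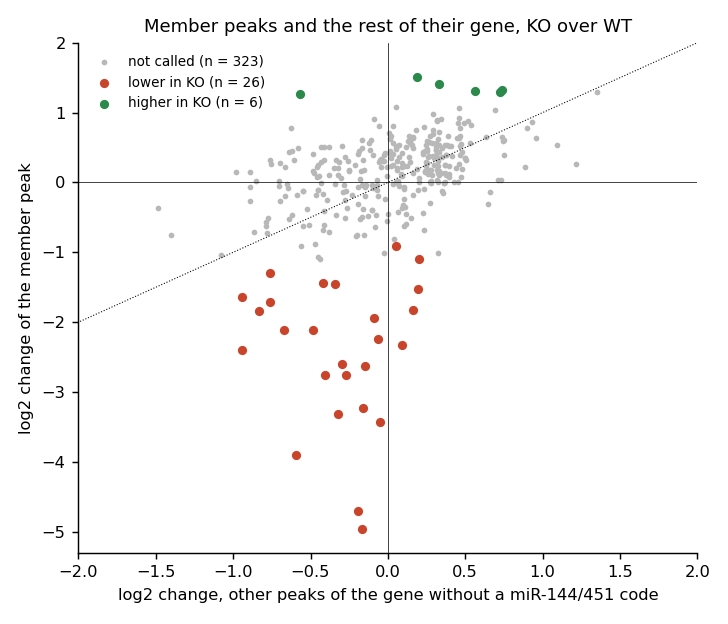
Log2 ratio of KO over WT Ago for each tested member (vertical) against that of all other peaks of its gene without a miR-144/451 code (horizontal), for genes with at least 20 such reads. The dotted line marks equal change; the 26 lower members (red) spread from -0.91 to -4.96 vertically while the rest of their genes stays between -0.94 and 0.20.

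Distance to a coded peak was looked at in the same way. A peak with a miR-144/451 code lay within 20 nt of 4 of the 26 lower members (15.4%) and within 100 nt of 10 (38.5%), against 7.58% and 27.9% of the 330 members without a call. No higher member had one within 100 nt. Of the 29 tested members within 20 nt of a coded peak 4 fell, of 73 at 21 to 100 nt 6 fell, of 148 beyond that and up to 1000 nt 9 fell, and of 112 farther away 7 fell. The medians of the log2 change in these ranges were 0.13, 0.11, 0.16 and 0.25. Of the 10 lower members with a coded peak within 100 nt, 4 had a neighbour deep enough to test, and 2 of these 4 neighbours were lower too. In Ggnbp2 the neighbour 9 nt away, with a mismatch code for miR-451a, had a log2 change of -2.69 (n = 3 each; edgeR adjusted p = 4.7e-04). In Rad23b the neighbour 13 nt away, with a mismatch code for miR-144-5p, had one of -1.67 (edgeR adjusted p = 0.011). The neighbours of the Top2a member, 17 nt away, and of the Hist2h2bb member, 93 nt away, were not called, with log2 changes of -0.71 and 0.18 (edgeR adjusted p = 0.30 and 0.84). The lower Rnf19a member lay 36 nt from a 7-mer-m8 match to miR-451a, and that peak was too shallow to test.

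Genes that held a lower coded peak anywhere gave another split. Of 77 tested members in 42 such genes 13 fell (16.9%), with a median log2 change of -0.14. Of 119 members in genes whose tested coded peaks were not lower 4 fell (3.36%), with a median of 0.31. Of 166 members in genes with no tested coded peak 9 fell (5.42%), with a median of 0.21. These members share genes and libraries, so the split is given without a test.

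Members of 1 gene had unlike values. Slc4a1 had 7 tested members, of which 1 fell and the other log2 changes lay between -1.09 and 0.22. Of the 5 in Top2a, 1 fell by 2.75 on the log2 scale while the smallest other change was -0.00. In Cltc the 4 members ranged from -2.24 to 0.60. In Car2 all 4 were negative, from -0.91 to -0.38, and 1 was called.

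The gene lists sort the tested members by function. For DNA replication, 3 of 7 tested members fell (Rrm2, Cdc6 and Rrm1), none rose, and the median log2 change was -0.52. Without WT Ago library 1, 4 members of this list could be tested, 1 was lower and the median was 0.01, and with DESeq2 2 of 7 were lower. For histones, 3 of 20 fell (Hist1h1b, Hist1h4f and Hist2h2bb), none rose, and the median was -0.05. For haem and iron handling, 1 of 18 fell (Tfrc) with a median of -0.10, and of the 4 members of Alas2, the first enzyme of haem synthesis in red cells, none was called (-1.06 to 0.32). For red cell membrane proteins and globins, 1 of 10 fell (Slc4a1) with a median of -0.01. The Slc4a1 call was lost under 5 of 11 alternatives, and the list had 0 lower with DESeq2, with scaling by library size alone and without WT Ago library 1, WT Ago library 9 or KO Ago library 12. Mitosis had 1 of 11 lower (Top2a; median -0.16), translation factors 1 of 6 (Eif5; -0.01), cytoskeleton and traffic 1 of 7 (Cltc; 0.23), and RNA-binding proteins 1 lower and 1 higher of 10 (Dhx15 and Rc3h2; 0.08). The Eif5 call was lost under 4 of 11 alternatives. The translation factor list had 0 lower with DESeq2 and without WT Ago library 1, WT Ago library 9, KO Ago library 3 or KO Ago library 12. The cytoskeleton and traffic list had 0 lower without WT Ago library 1, WT Ago library 9 or KO Ago library 12. None of the 5 ribosomal protein, 5 chaperone, 6 ubiquitin and proteasome or 3 glycolysis members was called, nor the 2 of erythroid regulators and the 2 of granulocytes. Macrophage, megakaryocyte and endothelial genes had 16, 10 and 4 members and none deep enough to test. For reading these counts, 17.6% of all tested peaks were lower and the median of all was 0.09.

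The list of the Ago pathway had 6 tested members in 3 genes, of which the 2 of Tnrc6a rose, and a median of 0.42. Of all tested peaks 1.40% rose. The list had 0 higher with DESeq2 and without WT Ago library 1, WT Ago library 10 or KO Ago library 12. Its 160 members took 0.140%, 0.169% and 0.131% of the reads in WT Ago libraries, in the order 1, 9 and 10, and 0.186%, 0.241% and 0.174% in KO, in the order 3, 12 and 13. The member shares did not overlap between the genotypes, in the same direction as the share of all members. This was the only 1 of 19 lists without overlap. Over all peaks of these genes the shares did overlap, at 0.516% to 0.625% in WT and 0.581% to 0.770% in KO. The 4 tested members of Tnrc6b, another GW182 protein, and of Ago2 had log2 changes between -0.43 and 0.43 and were not called.

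**Figure D5:**
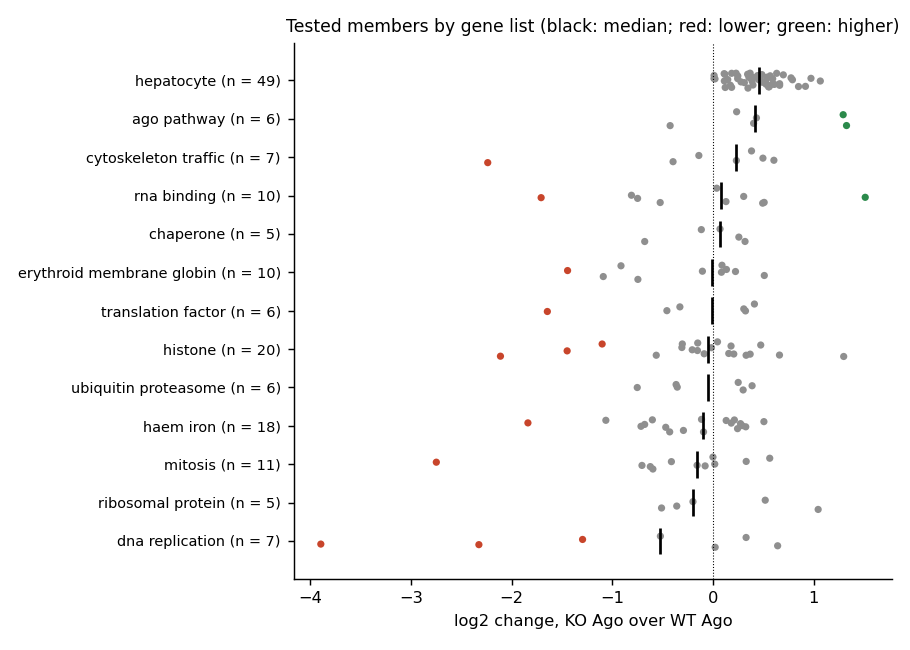
Fitted log2 change of KO over WT Ago for the tested members (points) of each gene list with at least 5 of them, with the list's median as a black line, members lower in KO in red and higher in KO in green. All 49 hepatocyte members lie above 0 without a call, and the DNA replication list has a median of -0.52, which was 0.01 over 4 members without WT Ago library 1.

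Hepatocyte genes held 49 of the 362 tested members, more than any other list. None was called, and all 49 log2 changes were above 0, from 0.01 to 1.07, with a median of 0.45. Of all 362 tested members 232 were above 0. The 49 hepatocyte members share genes and libraries and are not separate observations. Alb, serum albumin, had 13 of them (0.01 to 0.79), Afp, alpha-fetoprotein, 11 (0.34 to 1.07) and Trf, transferrin, 8 (0.01 to 0.97). The largest was in Afp (chr5:90501514-90501571), at 170, 271 and 526 CPM in WT and 446, 588 and 951 in KO, where the genotypes overlapped (edgeR adjusted p = 0.10). The 345 hepatocyte members, tested or not, took 0.370%, 0.433% and 1.13% of the reads in WT Ago libraries, in the same order, and 0.683%, 0.777% and 1.35% in KO. WT library 10 stood apart from the other WT libraries and inside the KO range. Leaving out WT library 1 brought the count above 0 to 33 of 59 and the median to 0.03, leaving out WT library 9 gave 37 of 59 and 0.15, and leaving out WT library 10 gave 65 of 66 and 0.88, with 8 members called higher. KO library 13 had the highest share of the KO libraries, and without it 43 of 61 were above 0, with a median of 0.16. In IgG libraries the hepatocyte members took 0.974% to 1.35% of the reads in WT and 1.06% to 1.45% in KO. The Ago shares of WT library 10 and KO library 13 lay within these ranges. Whether the Ago libraries differed in carried-over RNA was not tested. In these bulk libraries fewer cells of a type and less RNA per cell cannot be told apart. What part this has in the values of other members was not tested.

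Ago and IgG libraries were compared within each genotype to see which members stand above the control. IgG libraries were shallow, and only 60 members could be tested in WT and 57 in KO. The filter asks for enough reads in 3 of the libraries compared, so a peak could enter through 1 antibody alone. A member that entered this way had to differ between the antibodies. The counts and named members of this comparison, here and below, are therefore in part set by the filter. How many entered this way was not counted. In WT, 35 of 60 members were higher and 2 lower in Ago (58.3% and 3.33%), where 35.9% of all 894 tested peaks were higher and 37.9% lower. In KO, 51 of 57 were higher and none lower (89.5%), where 40.0% of 645 tested peaks were higher and 23.3% lower. The median log2 change was 1.63 in WT and 2.47 in KO, and 25 members were higher in both. Over all members tested for it, the difference between the genotypes in this change had no call: the interaction of genotype and antibody passed for 0 of 95 members (0% of 1364 tested peaks; edgeR, where an unadjusted p under 0.05 was reached by 1 with a fall and 1 with a rise).

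The 5 named genes with the smallest p higher in WT Ago than in IgG were Hist2h2bb, Rrm2, Adcy6, Hist1h1d and Xk. On the CPM scale of this comparison, Hist2h2bb stood at 7054 ± 123 in Ago and 579 ± 226 in IgG (SD, n = 3 each), a log2 change of 3.55 ± 0.45. Rrm2 stood at 2050 ± 662 and 42.1 ± 72.9 CPM, a log2 change of 5.35 ± 0.82, with 1, 0 and 0 reads in the IgG libraries. Adcy6 (chr15:98600990-98601019), an adenylate cyclase, stood at 2321 ± 429 and 128 ± 126 CPM, and Xk (chrX:9282225-9282259), a red cell membrane protein, at 1983 ± 518 and 119 ± 127. Hist1h1d, a linker histone, was at 2802 ± 319 and 279 ± 139. The edgeR adjusted p-values of the 5 lay between 2.5e-04 and 3.6e-04. Of these genes, Adcy6, Hist1h1d and Xk had no call between the genotypes, with log2 changes in KO of 0.46, 0.04 and 0.01 and edgeR adjusted p-values of 0.38 to 0.98.

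Hepatocyte members and the others gave unlike counts, a difference that was not tested. In WT, 6 of 26 tested hepatocyte members were higher in Ago, with a median log2 change of 0.90, against 29 of 34 other members with a median of 2.60. In KO, 23 of 27 hepatocyte members were higher, with a median of 1.89, against 28 of 30 with a median of 3.13. All 5 histone members tested in WT and all 5 tested in KO, not the same set, were higher. The 2 members below the control in WT, in Tsen34, a subunit of the tRNA splicing endonuclease, and Rims2, a presynaptic scaffold, were at 433 ± 151 and 346 ± 162 CPM in Ago and at 989 ± 204 and 803 ± 77.6 in IgG (SD, n = 3 each; edgeR adjusted p = 0.0095 and 0.016). They fall outside the naming rule and were picked after their values were seen. With DESeq2 neither was called lower.

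In the IgG libraries 7 members could be tested for KO against WT and 0 were called, as were 0% of 190 tested peaks. None of the 7 had an unadjusted p under 0.05, and DESeq2 called none.

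The authors' deposited table of differential peaks held 757 members, of which 138 were also tested here. By its own false discovery rate under 0.05, 137 of the 757 were lower (18.1%) and 7 higher (0.925%), where 35.7% of all 6651 peaks of the authors' table were lower and 1.29% higher. The median log2 change in the authors' deposited table was -0.30 for members and -0.65 for all its peaks. Of the 26 lower members found here, 9 were in the authors' deposited table, each lower there with a false discovery rate under 0.05. Of the 6 higher members 4 were in it, and none of these passed there. Of the 330 tested members without a call here 125 were in it. Among these, 4 passed there in the same direction as their change here.

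Below the filter, some members had reads in WT libraries alone. Of 1246 members with at least 20 WT Ago reads, 13 had no KO Ago read, and of 797 with at least 20 KO reads none lacked WT reads. The WT Ago libraries held 292010, 452157 and 202876 reads in peaks and the KO Ago libraries 198800, 341061 and 147969. A count of 0 was thus easier to reach in KO. The share over all peaks was not counted. Among coding peaks with a miR-144/451 code, 77 of 1812 with at least 20 WT reads had no KO read. A peak of 4930430F08Rik, an uncharacterised gene (chr10:100577280-100577312, - strand), held 18, 14 and 8 WT reads and 0 in each KO library, at least 11.2-fold lower in KO with 3 reads over the group taken as the floor. A peak of Zcchc8, a zinc knuckle protein of nuclear RNA decay, held 13, 17 and 6 WT reads (at least 10.1-fold lower), and a peak of Polr2a, the large subunit of RNA polymerase II, 12, 15 and 6 (at least 9.24-fold lower). These 3 lay 1467, 524 and 434 nt from the nearest coded peak. Over all 13 the gap ranged from 3 nt (Smc6) to 15282 nt (Zzef1), with Slc39a8 at 9 nt and Slc1a5 at 34 nt. The members described were chosen on their read counts, so no test is given.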

How the data were processed

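Coding peaks without a seed code were examined in 12 HITS-CLIP libraries. The submitters' processing notes name genome build mm10 and the tools STAR, cutadapt, limma and bedtools, without roles. The authors deposited raw read counts per peak and library, with peaks called on the pooled Ago libraries per the deposited description. The authors' other deposited columns are the seed code and the density over background (both a score), the peak height and gene coverage (signal), and the IgG to Ago ratio of heights. A further table deposited by the authors gives their own log2 changes and FDR values (adjusted p-values). No count column was left unmapped.

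Counts were tested with edgeR 4.0.16 (R 4.3.3, TMM scaling, quasi-likelihood F test, Benjamini-Hochberg adjustment over all tested peaks at 0.05). A check on simulated data came first. It gave all peaks the same spread and placed changes only in peaks that had passed the filter. It therefore could not test entry through 1 genotype alone, and no result here rests on it. The filter was filterByExpr at its defaults, a minimum count of 10 at the median library size and 15 in total. The minimum is applied as CPM over the reads in all peaks, so a smaller library passes with fewer reads and a larger one needs more. The CPM printed as levels is over the tested peaks alone. DESeq2 1.42.0 and limma 3.58.1 (voom) were alternatives. Shares of reads were compared by 2-sided exact permutation tests (SciPy 1.17.1). Intervals of read ratios are exact binomial intervals at 95% and cover counting error only, since PCR copies are not independent molecules. Members and gene lists were chosen with earlier results of these data known. Named are the 12 lower and up to 8 higher genes with the smallest p, the 8 with the highest WT level, the genes with most tested members and the called members of the lists, plus 5 higher in Ago than in IgG. Some items that the rule names are not reported here.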

Additional observations from a re-analysis of the deposited data

How the results depend on the processing

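The 26 lower and 6 higher members were recounted under other settings. The lower count was 21 with DESeq2 and between 19 and 27 with other scalings, limma-voom, all 12 libraries in 1 fit or peaks with identical counts left out. It moved with the filter, to 94 at a minimum count of 5, 189 with no filter, 3 at a minimum of 20 and 91 among the peaks of the authors' table. Leaving out 1 library and filtering anew gave 9 (without WT Ago 1) to 67 (without KO Ago 3), with 13 without WT Ago 9, 57 without WT Ago 10 and 58 without KO Ago 13. On the same 362 peaks it gave 21 to 24. The higher count was 0 with DESeq2, 3 with limma-voom, 2 with no filter, 0 at a minimum of 20, 28 among the peaks of the authors' table and 13 with all 12 libraries in 1 fit. Leaving out 1 library gave 0 (without WT Ago 1) to 11 (without WT Ago 10), and 2 to 10 on the same peaks. Of the 22 named lower members 16 kept their call under every alternative that tested them, and of the 5 named higher genes 0 did.

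Members above IgG numbered 155 in WT and 115 in KO at a minimum count of 5. Leaving out 1 library gave 9 (without WT Ago 9) to 134 (without WT IgG 2) in WT and 7 (without KO Ago 13) to 113 (without KO IgG 4) in KO. The share of the members in Ago minus that in IgG turned to -6.28 points in WT and -2.77 in KO over coding reads alone, and was 7.501 with both genotypes together, an alternative chosen after seeing the data, as were the recounts on the same peaks. Apart from what the filter itself sets, the cause was not tested. The search for seed matches in wider windows was not run, since no genome was used here. No paired analysis was possible because the groups share no library numbers. Depth limits all of this: 18229 members were too shallow to test.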
